A study of Danio rerio with 10 samples.

Results

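Rohon-Beard and other sensory neuron genes were followed in the fin cells of *prdm1a-/-* zebrafish. The 10 genes were *isl1*, *isl2a*, *isl2b*, *tlx3b*, *drgx*, *p2rx3b*, *neurod1*, *neurog1*, *elavl3* and *elavl4*. They were taken by gene name from the deposited count table, in which each had 1 of the 32520 rows. Bulk RNA-seq was done at 48 hours post fertilization (hpf) on 2 *prdm1a-/-* and 2 WT libraries of cells that had been sorted for EGFP. The *prdm1a-/-* embryos carried *Tg(Mmu:Prx1-EGFP)* and were homozygous for the m805 allele of *prdm1a*, also called *narrowminded* (nrd). The WT embryos carried *Tg(Mmu:Prx1-EGFP)* and were labelled wild type. The reporter is driven by a mouse *Prx1* enhancer, which marks the pectoral fin and also the pharyngeal arches and the dorsal head. Heads and pharyngeal arches had been cut off before sorting, and the paper says that some tissue of the arches and dorsal head may have remained. Each library came from many pooled embryos, mutants had been picked by their pigment phenotype, and the embryos came from crosses between heterozygous carriers. For its fin measurements the study counted heterozygotes with WT, and whether the WT pools for RNA-seq held heterozygotes is not said.

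Rohon-Beard cells are large sensory neurons of the dorsal spinal cord that send axons into the skin of the embryo and larva and respond to touch. They arise at the neural plate border, from the same region as the neural crest, which later gives the neurons of the dorsal root ganglia. Prdm1a, a zinc-finger transcription factor, is needed in zebrafish for Rohon-Beard cells to form, so the genes that these cells use are of interest in the mutant. Proneural bHLH factors start neuron formation, LIM and other homeodomain factors then give the cell its sensory identity, Elav-like RNA-binding proteins mark it as a neuron, and ion channels such as P2X receptors serve its function.

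Library totals ranged from 20303621 to 26798799 counts, and 20007 of the 32520 genes passed the filter on low counts and were tested. All 10 sensory genes were among them. Both genotypes have replicates numbered 1 and 2, and libraries with the same number are called a pair here. Pair number separated the libraries more than genotype did: replicates 1 and 2 lay apart on the first principal component (75.7% of the variance), and the genotypes on the second (15.9%). The genes were to be compared within replicate number. For this reason the model had genotype and replicate number as terms (edgeR's quasi-likelihood test, Benjamini-Hochberg adjustment over all genes tested). It left 1 residual degree of freedom. It called 124 genes lower (0.620% of those tested) and 79 genes higher (0.395%) in *prdm1a-/-* at an adjusted p under 0.05. With genotype alone, edgeR called 0 genes, although 376 had an unadjusted p under 0.05, and DESeq2 called 45. Transcripts of *prdm1a* itself were counted in all 4 libraries, with 2505 and 7847 counts in *prdm1a-/-* and 1147 and 5222 counts in WT (replicates 1 and 2). The log2 fold change of 0.83 ± 0.198 (SE) had an edgeR adjusted p of 0.0932. Because m805 is a point mutation that gives a premature stop codon, the transcript level does not check the genotype labels.

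In *prdm1a-/-* cells, 3 of the 10 sensory genes were called lower at an adjusted p under 0.05, against 0.620% of all genes tested, and 0 were called higher, against 0.395%. These were *neurod1*, *isl2a* and *elavl3*. At an unadjusted p under 0.05, 6 of the 10 were lower, against 6.05% of all genes. The *prdm1a-/-* library was below the WT library in both pairs for 8 of the 10, against 29.7% of all genes, and the genotypes did not overlap, with *prdm1a-/-* the lower, for 7 of the 10, against 13.5%. The median log2 fold change was -0.81 over the 10 genes and 0.01 over all genes tested. The 10 genes were chosen with earlier results of these data known, so these shares are a description and carry no test of the group. The RNA came from bulk cells, in which fewer neurons, less RNA in each neuron and differing amounts of leftover tissue cannot be told apart.

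Both proneural genes were lower in *prdm1a-/-* in both pairs, and 1 of them passed the test. *neurod1* encodes a bHLH factor that acts after the first proneural step and drives neuron differentiation. It had 10.3 and 9.55 CPM in *prdm1a-/-* replicates 1 and 2, against 28.1 and 44.3 CPM in WT replicates 1 and 2, where CPM is the count scaled to library size with TMM factors. Both *prdm1a-/-* libraries were far below both WT libraries, and the *prdm1a-/-* libraries were close to each other. The *prdm1a-/-* level was 28.0% of WT, a log2 fold change of -1.83 ± 0.222 (SE) with an edgeR adjusted p of 0.00336. It ranked first among the 10 genes and 51st of all 20007 by p. The within-pair log2 ratios were -1.45 and -2.21.

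*neurog1*, the proneural bHLH gene that in zebrafish is needed for dorsal root and cranial ganglion neurons, was much less counted, with 42 and 60 counts in *prdm1a-/-* and 74 and 94 counts in WT. These were 2.06 and 2.31 CPM in *prdm1a-/-* and 3.23 and 4.18 CPM in WT. The genotypes did not overlap, but the log2 fold change of -0.75 ± 0.433 (SE) had an edgeR adjusted p of 0.532. Set against each other within a library, *neurog1* had 0.200 and 0.242 counts per *neurod1* count in *prdm1a-/-*, and 0.115 and 0.0945 in WT. The ratio was higher in both *prdm1a-/-* libraries than in either WT library. The difference between the 2 genes was not tested.

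The 3 Islet genes encode LIM homeodomain factors found in Rohon-Beard cells, other sensory neurons and motor neurons. All 3 had lower levels in *prdm1a-/-* in both pairs, and *isl2a* passed the test. *isl2a* had 25.7 and 23.6 CPM in *prdm1a-/-* and 55.0 and 44.8 CPM in WT. The genotypes were well apart, with both *prdm1a-/-* values near each other. The *prdm1a-/-* level was 49.6% of WT, with a log2 fold change of -1.01 ± 0.157 (SE), within-pair values of -1.10 and -0.93, and an edgeR adjusted p of 0.0132. Of the 3 called genes, *isl2a* had the pairs closest to each other.

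*isl1* had 286 and 246 counts in *prdm1a-/-* and 413 and 519 counts in WT. Scaled to library size, both *prdm1a-/-* libraries were below WT, but the gap was much smaller in pair 1 (log2 ratio -0.36) than in pair 2 (-1.28). The log2 fold change of -0.82 ± 0.250 (SE) had an unadjusted p of 0.00809 and an edgeR adjusted p of 0.197. *isl2b*, whose regulatory sequence is used in zebrafish to label Rohon-Beard and trigeminal neurons, had 8.04 and 14.6 CPM in *prdm1a-/-* and 11.8 and 19.0 CPM in WT. Its genotypes overlapped, because replicate 2 was above replicate 1 in both. Within pairs the log2 ratios were -0.56 and -0.38, and the fitted log2 fold change was -0.47 ± 0.216 (SE) with an edgeR adjusted p of 0.417. For each count of *isl2b* there were 3.2 and 1.6 counts of *isl2a* in *prdm1a-/-*, and 4.6 and 2.4 in WT. That ratio followed the replicate number as well as the genotype.

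*tlx3b* and *drgx* encode homeodomain factors of sensory neurons, and *p2rx3b* encodes an ATP-gated ion channel of Rohon-Beard and trigeminal neurons. All 3 were sparse. *tlx3b* had 24 and 26 counts in *prdm1a-/-* and 58 and 62 counts in WT. The libraries of each genotype were nearly equal and the genotypes did not overlap. The log2 fold change of -1.28 ± 0.557 (SE), with pairs at -1.11 and -1.46, had an unadjusted p of 0.0443 and an edgeR adjusted p of 0.384.

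*drgx* and *p2rx3b* did not follow the genotype. *drgx* had 45 and 6 counts in *prdm1a-/-* and 38 and 18 counts in WT. *p2rx3b* had 62 and 5 counts in *prdm1a-/-* and 29 and 25 counts in WT. In both genes *prdm1a-/-* replicate 1 was the highest of the 4 libraries and *prdm1a-/-* replicate 2 the lowest. The log2 ratios were 0.41 in pair 1 and -1.79 in pair 2 for *drgx*, and 1.26 and -2.53 for *p2rx3b*. The fitted log2 fold changes were -0.51 ± 0.796 (SE) for *drgx*, with an edgeR adjusted p of 0.861, and -0.33 ± 0.944 (SE) for *p2rx3b*, with an edgeR adjusted p of 0.935. The sign for *p2rx3b* turned with the model: it was 0.43 with genotype alone and 0.39 with limma-voom and the replicate number. A higher level in pair 1 with a lower one in pair 2 was seen in 20.1% of all genes tested.

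**Figure D1:**
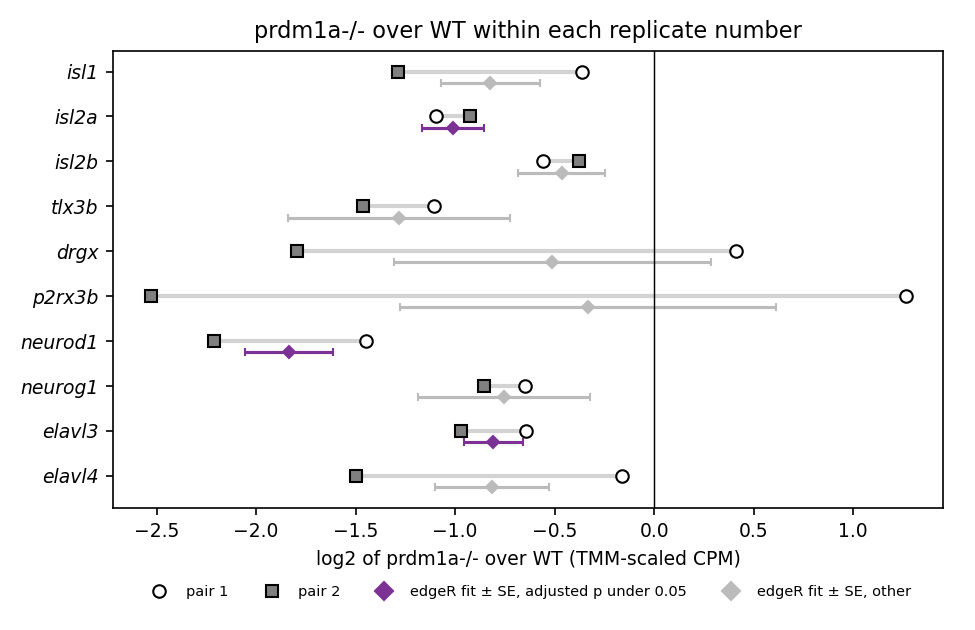
Log2 of *prdm1a-/-* over WT for the 10 sensory neuron genes, with circles for pair 1, squares for pair 2 and diamonds for the edgeR fit. Bars are the standard error derived from the edgeR test, and diamonds are coloured where the adjusted p was under 0.05. Of the 10 genes, 8 have both pairs left of 0, and *drgx* and *p2rx3b* lie on opposite sides.

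*elavl3* (HuC) and *elavl4* (HuD) encode RNA-binding proteins of newly formed and mature neurons of many kinds, and so are not particular to sensory cells. Both were lower in *prdm1a-/-* in both pairs, and *elavl3* passed the test. *elavl3* had 48.6 and 57.1 CPM in *prdm1a-/-* and 75.8 and 111.8 CPM in WT. Both *prdm1a-/-* libraries were below WT, and the WT libraries were farther from each other than the *prdm1a-/-* ones. The *prdm1a-/-* level was 57.1% of WT, with a log2 fold change of -0.81 ± 0.146 (SE), pairs at -0.64 and -0.97, and an edgeR adjusted p of 0.0306. With RLE size factors in place of TMM the adjusted p from edgeR was 0.0635, so the call was lost.

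*elavl4* had 22.2 and 8.78 CPM in *prdm1a-/-* and 24.8 and 24.8 CPM in WT. The WT libraries were level, and of the mutant libraries only replicate 2 was clearly below them. The pairs were at -0.16 and -1.50, and the log2 fold change of -0.82 ± 0.287 (SE) had an unadjusted p of 0.0174 and an edgeR adjusted p of 0.276. For each *elavl3* count there were 0.457 and 0.154 counts of *elavl4* in *prdm1a-/-*, and 0.327 and 0.222 in WT, so that this ratio did not separate the genotypes. The *neurod1* to *elavl3* ratio did, at 0.212 and 0.167 in *prdm1a-/-* and 0.371 and 0.396 in WT. In both *prdm1a-/-* libraries *neurod1* was thus lower also against *elavl3*, by this untested ratio. The *isl2a* to *elavl3* ratio overlapped between genotypes, at 0.529 and 0.413 in *prdm1a-/-* and 0.725 and 0.401 in WT. So did the *isl1* to *elavl3* ratio, at 0.288 and 0.166 in *prdm1a-/-* and 0.238 and 0.206 in WT.

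**Figure D2:**
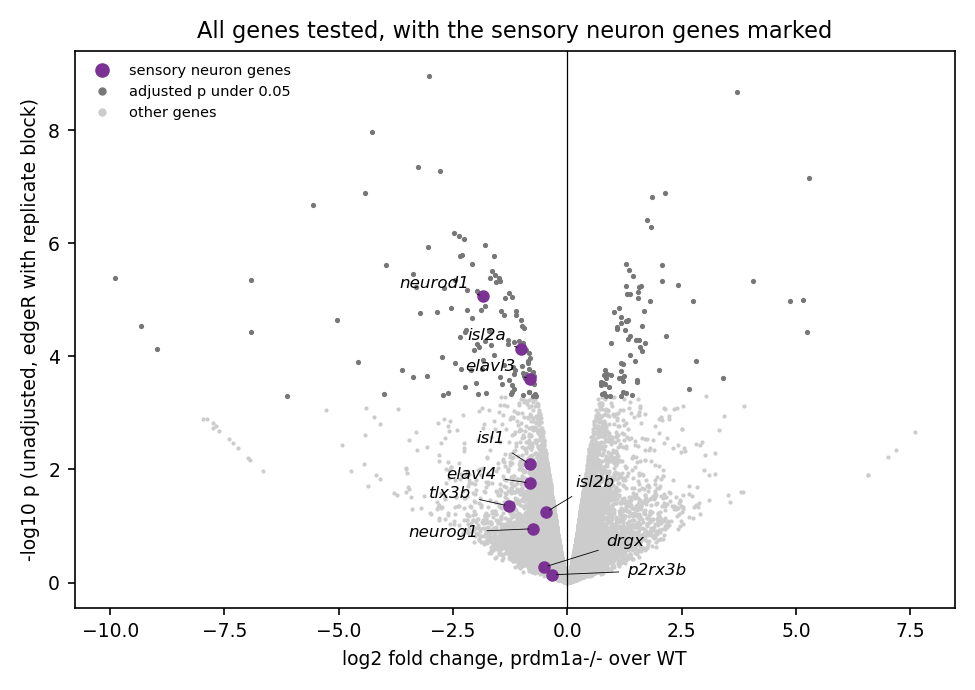
Every gene tested by its log2 fold change, *prdm1a-/-* over WT (x axis), and -log10 of its unadjusted p from edgeR with the replicate number in the model (y axis), with the 10 sensory neuron genes as coloured circles. All 10 lie left of 0, and *neurod1*, *isl2a* and *elavl3* lie among the darker points, which have an adjusted p under 0.05.

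The calls rested on the replicate number being in the model. With it, *neurod1* and *isl2a* were called in 6 of 6 fits that differed in tool, size factors and filter, with adjusted p from 1.14e-06 to 0.0135 for *neurod1* and from 4.34e-04 to 0.0329 for *isl2a*, and *elavl3* in 5 of 6. The other 7 genes were called in none of the fits that could test them. With genotype alone, edgeR called 0 of the 10 genes, against 0.00% of all genes lower. At an unadjusted p under 0.05 by edgeR there were 3 of the 10, against 376 of the 20007 genes tested. DESeq2 with genotype alone called 1, *neurod1* (adjusted p = 0.0443), against 0.149% of the genes to which DESeq2 gave an adjusted p. The fold changes themselves moved little, to -1.87 for *neurod1*, -1.02 for *isl2a* and -0.83 for *elavl3* with genotype alone.

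With TMM scaling, the size of the difference was larger in pair 2. The median log2 ratio of the 10 genes was -0.60 in pair 1 and -1.37 in pair 2. Their summed level was 137 CPM in *prdm1a-/-* replicate 1 against 222 CPM in WT replicate 1, and 127 CPM in *prdm1a-/-* replicate 2 against 277 CPM in WT replicate 2. Of the 10 genes, *isl2a* and *isl2b* were the ones with the smaller decrease in pair 2, and the other 6 that were lower in both pairs had the larger decrease there.

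Other genes of Rohon-Beard, trigeminal and dorsal root sensory neurons were more often lower than higher. They differed in sign between the pairs about as often as all genes tested. Of 26 tested, 11 were lower in both pairs (against 29.7% of all genes), 4 higher in both and 11 opposite between pairs (against 40.3%). Of the 26, 2 were called lower (against 0.620%) and 0 higher (against 0.395%). The median log2 fold change was -0.25. The called genes were *ngfra*, which encodes the p75 neurotrophin receptor, and *eya1*, a transcription cofactor of cranial placodes that other tissues also use. *ngfra* had 88.9 and 82.8 CPM in *prdm1a-/-* and 136.8 and 146.6 CPM in WT, a log2 fold change of -0.72 ± 0.135 (SE) with an edgeR adjusted p of 0.0355. *eya1* had 105.5 and 61.6 CPM in *prdm1a-/-* and 176.9 and 103.7 CPM in WT, a log2 fold change of -0.75 ± 0.131 (SE) with an edgeR adjusted p of 0.0266, with overlapping genotypes but nearly equal ratios in both pairs. With RLE size factors 0 of the 26 were called by edgeR. The most abundant gene of the list, *piezo2a.2*, named for the mechanosensory channel Piezo2, was higher in both *prdm1a-/-* libraries, with 168.9 and 150.1 CPM in *prdm1a-/-* and 109.8 and 114.0 CPM in WT, but its log2 fold change of 0.51 ± 0.135 (SE) had an edgeR adjusted p of 0.133.

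Within the same list, 10 of the 26 genes were higher in *prdm1a-/-* in pair 1 and lower in pair 2, against 20.1% of all genes, and the pair medians were 0.02 and -0.79. This was the arrangement of *drgx* and *p2rx3b*. Channel genes of sensory neurons were among them. *p2rx3a*, the paralog of *p2rx3b*, had 98 and 0 counts in *prdm1a-/-* and 6 and 18 counts in WT, where a count of 0 allows up to 3 counts. *trpa1b*, an irritant-gated channel, had 22 and 10 counts in *prdm1a-/-* and 8 and 35 counts in WT. For *p2rx3a*, *prdm1a-/-* replicate 1 was the highest of the 4 libraries and *prdm1a-/-* replicate 2 the lowest.

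General neuron genes followed the same split. Among 27 genes of neuron structure and synapse, 16 were higher in *prdm1a-/-* in pair 1 and lower in pair 2, against 20.1% of all genes. The pair medians were 0.56 and -0.63, with a median fitted log2 fold change of -0.0018. The summed level of the 27 genes was 580 and 336 CPM in *prdm1a-/-* and 481 and 456 CPM in WT. Only *map2*, a microtubule-associated protein of dendrites, was called lower (1 of 27, against 0.620% of all genes), with 26.0 and 41.3 CPM in *prdm1a-/-* and 61.9 and 74.9 CPM in WT, a log2 fold change of -1.05 ± 0.157 (SE) and an edgeR adjusted p of 0.0106. The most abundant, *tubb5*, a tubulin, had 206 and 136 CPM in *prdm1a-/-* and 182 and 139 CPM in WT, with overlapping genotypes. At an unadjusted p under 0.05 by edgeR, 3 of the 27 were lower, against 6.05% of all genes, and 3 higher. In either direction 2490 of the 20007 genes tested had such a p. The 3 higher ones among the 27 were the neurofilament genes *nefmb*, *nefma* and *neflb*, each higher in both pairs but not called. Their log2 fold changes were 0.94 ± 0.278, 0.99 ± 0.334 and 0.80 ± 0.316 (SE). When each sensory gene was set against the median of these 27 genes in its own pair, 8 of the 10 were again lower in both pairs. The set was not the same, since *drgx* entered it with -0.15 and -1.16 and *isl2b* left it with -1.12 and 0.25. Of the 3 called genes, *neurod1* was at -2.01 and -1.58, *isl2a* at -1.65 and -0.30, and *elavl3* at -1.20 and -0.34. On this scale all 3 had the smaller decrease in pair 2, and for *isl2a* and *elavl3* little of it was left there.

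Genes of proneural and neuron differentiation steps beside *neurog1* and *neurod1* were lower in both pairs in 12 of 18 tested, against 29.7% of all genes, with a median log2 fold change of -0.39. The call was limited to *nhlh2* (1 of 18, against 0.620%), a bHLH factor of early neurons. It had 60 and 122 counts in *prdm1a-/-* and 216 and 394 counts in WT, with a log2 fold change of -1.79 ± 0.268 (SE) and an edgeR adjusted p of 0.0108. The pairs were at -1.68 and -1.90, beside -1.45 and -2.21 for *neurod1*. *sox11a*, the most abundant of the list, had 168 and 221 CPM in *prdm1a-/-* and 190 and 254 CPM in WT. The log2 fold change of -0.19 ± 0.131 (SE) had an edgeR adjusted p of 0.618.

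Several of the 10 genes are used by other neurons, so marker lists of those cells were read in the same fit. Of 10 autonomic neuron genes, 3 were called lower, against 0.620% of all genes, and the summed level of the list was 84.8 and 67.2 CPM in *prdm1a-/-* and 186 and 208 CPM in WT. *phox2a*, a homeodomain factor that defines these neurons, had 120 and 184 counts in *prdm1a-/-* and 816 and 1238 counts in WT, a log2 fold change of -2.78 ± 0.194 (SE) with an edgeR adjusted p of 2.07e-04. Its relative *phox2bb* had 126 and 156 counts in *prdm1a-/-* and 606 and 836 counts in WT, with a log2 fold change of -2.37 ± 0.218 (SE) and an edgeR adjusted p of 0.00106. *ret*, a receptor of neural crest-derived neurons that sensory neurons share, had 330 and 192 counts in *prdm1a-/-* and 1515 and 1305 counts in WT, with a log2 fold change of -2.49 ± 0.226 (SE) and an edgeR adjusted p of 0.0010. Over the list, 7 of 10 genes were lower in both pairs, against 29.7% of all genes, 3 were opposite between pairs and the median log2 fold change was -0.97. The markers *th* and *dbh*, for catecholamine enzymes, were not called: *th* had 2 and 2 counts in *prdm1a-/-* and 20 and 28 counts in WT (edgeR adjusted p = 0.215), and *dbh* had 12 and 26 counts in *prdm1a-/-* and 70 and 41 counts in WT (edgeR adjusted p = 0.364). *slc6a2*, the noradrenaline transporter gene, was among the opposite ones, with 12 and 26 counts in *prdm1a-/-* and 4 and 34 counts in WT. The part of autonomic neurons in the lower *neurod1*, *elavl3* or Islet counts was not tested.

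Motor neuron and spinal LIM genes gave 0 calls by edgeR in 13, against 0.620% of all genes lower and 0.395% higher. At an unadjusted p under 0.05 by edgeR there was 1, against 2490 of the 20007 genes tested. The summed level of the list was 104 and 80.9 CPM in *prdm1a-/-* and 135 and 99.7 CPM in WT. Of the 13, 7 were lower in both pairs, against 29.7% of all genes, 2 were higher in both, and the median log2 fold change was -0.35. *lmo4b*, a LIM-only gene and the most abundant, had 45.6 and 40.5 CPM in *prdm1a-/-* and 65.1 and 57.4 CPM in WT, with a log2 fold change of -0.51 ± 0.141 (SE) and an edgeR adjusted p of 0.150. The motor neuron marker *mnx1*, also on the pancreatic list, had 196 and 48 counts in *prdm1a-/-* and 225 and 8 counts in WT, high in replicate 1 of both genotypes. The other motor neuron markers went different ways. *chata* was lower in both pairs, with 25 and 38 counts in *prdm1a-/-* and 32 and 62 in WT. *mnx2a* was higher in both, with 37 and 37 counts in *prdm1a-/-* and 39 and 16 in WT, after scaling to library size. *mnx2b* and *slc18a3a* were opposite between pairs. Central interneuron genes (60.4 to 86.4 CPM summed in *prdm1a-/-*, 80.2 to 83.6 in WT) and brain genes (113.6 to 114.4 in *prdm1a-/-*, 74.8 to 115.0 in WT) also gave 0 calls by edgeR in 13 each. At an unadjusted p under 0.05 by edgeR there were 1 interneuron gene and 5 brain genes, against 2490 of the 20007 genes tested. The brain genes went both ways, with 5 lower and 4 higher in both pairs and a median log2 fold change of -0.05, although heads had been removed. *foxg1a*, a forebrain gene, had 152 and 66 counts in *prdm1a-/-* and 293 and 163 counts in WT. *pax6a*, a gene of brain, eye and spinal cord, had 373 and 134 counts in *prdm1a-/-* and 112 and 75 counts in WT. Each had an edgeR adjusted p of 0.135. The brain marker *emx3* had 28 and 186 counts in *prdm1a-/-* and 118 and 361 counts in WT. Its log2 fold change of -1.48 ± 0.309 (SE) had an edgeR adjusted p of 0.0618. The brain marker *otx2b* had 38 and 26 counts in *prdm1a-/-* and 24 and 32 counts in WT. Of the 5 brain genes at an unadjusted p under 0.05 by edgeR, 2 were lower and 3 higher. The interneuron gene *vsx1* (30 and 0 counts in *prdm1a-/-*, 4 and 52 in WT) and the forebrain gene *fezf2* (30 and 0 counts in *prdm1a-/-*, 4 and 14 in WT) were at 0 in *prdm1a-/-* replicate 2. The part of these neurons in the sensory gene counts was not tested.

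Genes of the neural plate border, where Rohon-Beard cells and neural crest arise earlier in development, gave 2 calls in 19, both lower, against 0.620% of all genes. *sox10*, a neural crest and glial factor, had 17.4 and 21.0 CPM in *prdm1a-/-* and 36.2 and 38.5 CPM in WT, with a log2 fold change of -0.96 ± 0.169 (SE) and an edgeR adjusted p of 0.0273. *dlx3b*, a homeodomain gene of the border that fin and arch cells also use, had 43.8 and 15.4 CPM in *prdm1a-/-* and 71.0 and 51.9 CPM in WT, with a log2 fold change of -1.22 ± 0.227 (SE). *tfap2c*, the most abundant, had 82.0 and 99.9 CPM in *prdm1a-/-* and 112 and 99.6 CPM in WT. Of 11 Schwann cell and glial genes 1 was called lower, *sox10* again, against 0.620% of all genes, and the list had a median log2 fold change of 0.48.

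**Figure D3:**
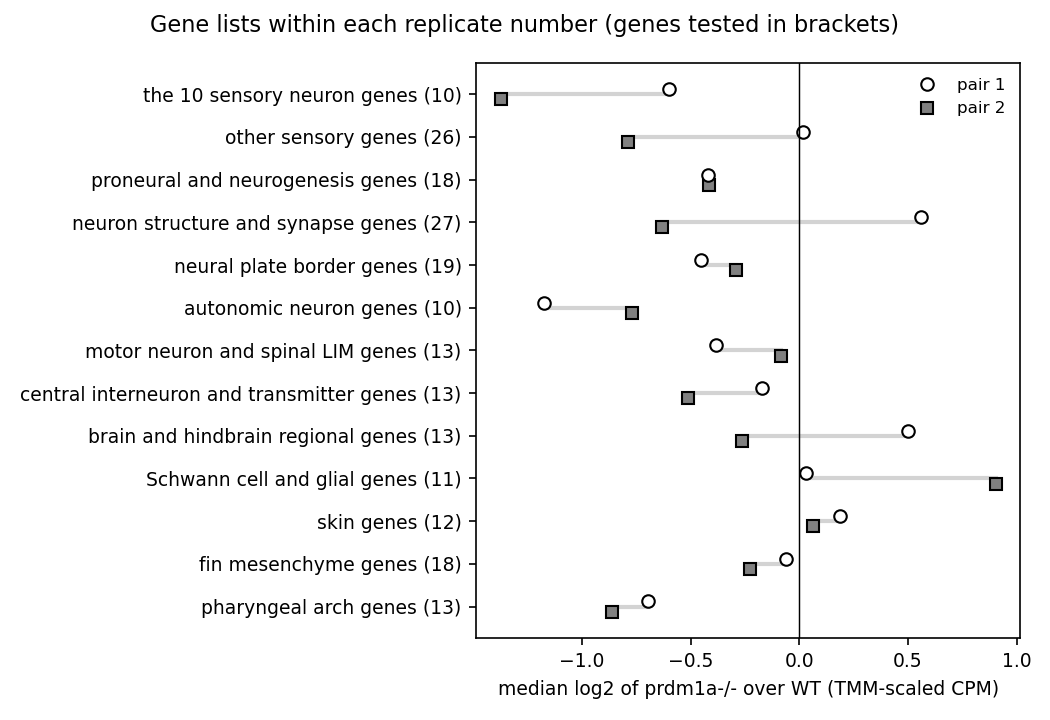
Median log2 of *prdm1a-/-* over WT for 13 gene lists, with circles for pair 1, squares for pair 2 and the number of genes tested in brackets. The 10 sensory neuron genes are at -0.60 and -1.37, while the neuron structure list sits at 0.56 and -0.63 and the skin and fin mesenchyme lists lie nearer to 0. Other lists are also lower in both pairs, among them the autonomic neuron list (-1.17 and -0.77) and the pharyngeal arch list (-0.70 and -0.86).

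Markers of the fin itself and of skin were abundant in all 4 libraries. The fin mesenchyme genes summed to 8481 and 4708 CPM in *prdm1a-/-* and 8970 and 3477 CPM in WT, and the skin genes to 15191 and 12311 CPM in *prdm1a-/-* and 12866 and 13371 CPM in WT. Of the fin mesenchyme genes 1 of 18 was called (*hand2*, lower, against 0.620% of all genes), and of the skin genes 0 of 12 by edgeR. Of these 12 skin genes, 3 had an unadjusted p under 0.05 by edgeR, against 2490 of the 20007 genes tested. The fin mesenchyme sum was higher in replicate 1 of both genotypes. Pharyngeal arch genes, whose cells carry the reporter too, were lower in both pairs in 10 of 13, against 29.7% of all genes, with pair medians of -0.70 and -0.86. Of the 13, 4 were called lower, against 0.620% of all genes: *hand2*, *dlx2a*, *dlx3b* and *barx1*. The lists share genes, since *hand2* is also the fin mesenchyme call and *dlx3b* also a neural plate border call. The part of arch cells in the sensory gene counts was not tested.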

How the data were processed

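Paired reads had been trimmed by the authors, mapped with STAR 2.7.10b to danRer11 and assigned to genes with featureCounts. The deposited values used here are whole-number counts per gene, not normalized. For featureCounts options and gene models, nothing is given in the sources used here. Per the labels, the library kit keeps strand. Of counts from 1 to 20, 79.2% to 82.4% per library were even. Whether both mates of a pair were counted is not given; if so, independent fragments are fewer than counts. The table's 4 columns of normalized log2 values and the authors' own comparison columns were not used, and the 6 CUT&RUN samples (24 hpf) were not analysed here.

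Counts from the 4 libraries (2 pools of embryos per genotype, 48 hpf) were fitted in R 4.3.3 with edgeR 4.0.16 (glmQLFit and glmQLFTest, two-sided, TMM). Genes had to pass filterByExpr (minimum count 10, minimum total 15), and all 10 sensory genes did. Each SE given with an edgeR fold change was derived from the test statistic, as the absolute log2 fold change divided by the square root of F. DESeq2 with the replicate number gave larger SEs for the 10 genes, such as 0.307 for *neurod1*, 0.244 for *isl2a* and 0.818 for *tlx3b*. P-values of the main model measure only the spread between these pools that is left after the replicate number is fitted, not the full spread between pools of a genotype. Replicate number was a term because the genes were to be compared within it. Neither labels nor methods say what a number shares. Same-numbered libraries deviated together from their genotype means (r = 0.80 over genes, which are no independent replicates), and the common dispersion was 0.0446 with the term and 0.255 without. Alternatives were DESeq2 1.42.0, limma-voom (limma 3.58.1), RLE size factors, other filters, genotype alone and leaving out each library; 2 more, a scaling to neuron genes and DESeq2 with genotype alone, were chosen after seeing the data. A gene to which DESeq2 gave no adjusted p was left as such. The scripts were tested on simulated data.

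The members and the 17 comparison lists were chosen with earlier results of these data known. All 10 members are named. Genes are counted by Ensembl identifier, and a few names have more than 1. Thus 26 names gave the 27 neuron structure genes and 18 names the 19 neural plate border genes. In the proneural list 20 names had 22 identifiers, and in the muscle list 15 names had 16. Of each list, called genes (at most 6) and the most abundant gene could be named. Other genes named were defining markers or were chosen after their values were seen (*p2rx3a*, *trpa1b*, *nefmb*, *nefma*, *neflb*, *slc6a2*, *vsx1*, *fezf2*). All 10 identifiers matched a table of Ensembl gene names. A count of 0 allows up to 3 counts; intervals of this kind cover counting error only. Levels are not compared between genes by length, since no lengths were used.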

Additional observations from a re-analysis of the deposited data

How the results depend on the processing

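With the replicate block as a term, edgeR called 203 genes in all, and without the replicate block (genotype alone) 0. The count over all genes was 128 with RLE size factors, 636 with no filter on low counts, 434 with limma-voom and 45 with DESeq2 and no block. Of the 10 sensory neuron genes, 3 were called with the block, 0 by edgeR with no block and 1 by DESeq2 with no block. Of the other sensory genes, the 2 calls became 0 with no block (edgeR and DESeq2), 0 with RLE size factors and 5 with no filter. Of the neuron structure genes, the 1 call became 0 with no block (edgeR and DESeq2), 3 with no filter and 3 with limma-voom. Without the block, leaving out any 1 of the 4 libraries gave 0 to 0 calls over all genes and in each of these 3 lists, with the lone library assumed to vary like the others.

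With the block, leaving out a library leaves 1 pair and no test. The median of the 10 genes then ranged from -1.37 to -0.60, *drgx* from -1.79 to 0.41 and *p2rx3b* from -2.53 to 1.26. *p2rx3b* was also above 0 without the block (0.43 by edgeR, 0.44 by DESeq2) and with limma-voom (0.39). The 10 genes had 98 values under these settings. DESeq2 with no block, and the fits with neither the block nor 1 of the libraries, were not counted in. Values with a library left out were untested ratios of the remaining pair, so each pair entered more than once. For these only the direction could be compared. Of the 98 values, 88 kept their direction and, where tested, their side of the threshold. Another 6 turned direction, and 4 lost the call (*neurod1*, *isl2a* and *elavl3* without the block, *elavl3* with RLE). Requiring 10 counts in every library left *drgx* and *p2rx3b* untested. The number of genes lower in both pairs was 8 under each scaling tried. TMM factors were 0.969 to 1.02, so scaling to library totals could change the ratios little. Against the neuron structure genes the 8 were not the same, with *drgx* in and *isl2b* out. At 2 libraries per genotype and 5 to 94 counts, *neurog1*, *tlx3b*, *drgx* and *p2rx3b* limit what can be read.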

Other observations

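Among lists of cells that use some of the same factors, 0 of 12 pancreatic and enteroendocrine genes, a tissue that also uses *neurod1* and *isl1*, were called by edgeR. At an unadjusted p under 0.05 by edgeR 2 were higher and 0 lower, against 2490 of the 20007 genes tested in either direction. The list had a median log2 fold change of 0.34. Its summed level was 41.6 and 69.9 CPM in *prdm1a-/-* and 35.7 and 43.2 CPM in WT. *gcga*, the glucagon gene and the most abundant of the list, had 5 and 780 counts in *prdm1a-/-* and 86 and 473 counts in WT, and so was low in replicate 1 of both genotypes. Of 8 lateral line and hair cell genes 0 were called by edgeR. At an unadjusted p under 0.05 by edgeR 1 of the 8 was lower and 1 higher. *cldnb*, a tight junction gene, had 1316 and 10700 counts in *prdm1a-/-* and 1123 and 6662 counts in WT. Of the other Elav-like genes 0 of 2 were called by edgeR, with 0 at an unadjusted p under 0.05, and the broadly used *elavl1a* had 220.5 and 233.8 CPM in *prdm1a-/-* and 213.5 and 246.4 CPM in WT.

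Of 11 heart and second heart field genes 1 was called lower by edgeR, against 0.620% of all genes. It was *tbx1*, a T-box factor that pharyngeal cells also use, with 43.3 and 9.67 CPM in *prdm1a-/-* and 110.4 and 40.9 CPM in WT. Of 15 skeletal muscle genes 3 were called lower, against 0.620% of all genes: the slow myosin genes *smyhc1* and *smyhc2* and the myogenic factor *myf5*. The list as a whole was not lower, with a median log2 fold change of 0.41. At an unadjusted p under 0.05 by edgeR, 4 of its genes were higher and 3 lower, against 2490 of the 20007 genes tested in either direction. The muscle sum was 10883 and 3018 CPM in *prdm1a-/-* and 12787 and 1661 CPM in WT, higher in replicate 1 of both genotypes.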
